A study of Homo sapiens with 18 samples.

Results

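The 7 genes described here encode the core binding factor and ETO families: RUNX1 and RUNX1T1, whose parts are joined in the AML1-ETO fusion, the RUNX paralogues RUNX2 and RUNX3, the RUNX partner CBFB, and the ETO paralogues CBFA2T2 and CBFA2T3. Their AML1-ETO peaks were taken by position, as every peak inside the gene or no more than 10 kb from either end in the RefSeq annotation of GRCh38. The data were CUT&RUN peak lists, in which an antibody directs a nuclease to its target and the released DNA is sequenced. After merging overlapping peaks of the 4 single-antibody lists, 80 of 35622 regions lay at these genes. All cells were Kasumi-1, an established acute myeloid leukaemia line with the t(8;21) translocation, and all carried Flag-tag AML1-ETO and were GFP+ cells sorted 72 h after transduction. The knockdown was of miR-130a, a microRNA, a short RNA that represses matching messenger RNAs. The groups compared were control cells with anti-ETO, control cells with anti-Flag, miR-130a KD cells with anti-ETO and miR-130a KD cells with anti-Flag, each with 3 libraries but a single peak list. The labels do not give the control vector or how the tag was introduced, and 1 cell line stands for the disease. The 2 IgG groups, control and knockdown, had no peak list analysed here.

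The lists give positions only. A list names no replicate and carries no height, score or read number, so the spread between libraries and the depth are unknown, and no test between conditions could be made. Every difference below is a description of 4 lists, and a region absent from a list was not called there, which does not show that it was unbound. The whole lists held 14264 peaks for control anti-ETO, 23162 for control anti-Flag, 22594 for knockdown anti-ETO and 25961 for knockdown anti-Flag. The control anti-ETO list was thus the shortest, and counts in the other lists are to be read against that difference.

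RUNX proteins bind DNA through their Runt domain and form a heterodimer with CBFB, which does not contact DNA itself and strengthens binding. RUNX1 is required for the emergence of blood stem cells and for megakaryocyte and lymphoid development, RUNX2 is the master regulator of bone formation, and RUNX3 acts in T cells, sensory neurons and epithelium. Each RUNX gene has a distal and a proximal promoter. ETO family proteins do not bind DNA directly. They are scaffolds that bring corepressors and histone deacetylases to transcription factors, and in AML1-ETO the Runt domain of RUNX1 is joined to nearly all of RUNX1T1. In bone marrow progenitors the fusion blocks myeloid differentiation.

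The RefSeq promoter table of GRCh38.p14 held windows for the proximal starts of all RUNX genes and for the distal starts of RUNX2 and RUNX3. These sequences are shown because peaks lay on all of the proximal starts and on neither of these distal starts. They are the 250 bases before each start, read 5′ to 3′ on the gene's strand, with capitals marking the RUNX motif TGTGGT or its reverse complement ACCACA. The RUNX1 proximal sequence is chr21:34888700-34888949 (minus strand), the RUNX2 proximal sequence is chr6:45422025-45422274 (plus strand), the RUNX3 proximal sequence is chr1:24930277-24930526 (minus strand), and the RUNX2 distal sequence is chr6:45328080-45328329 (plus strand).
RUNX1 proximal: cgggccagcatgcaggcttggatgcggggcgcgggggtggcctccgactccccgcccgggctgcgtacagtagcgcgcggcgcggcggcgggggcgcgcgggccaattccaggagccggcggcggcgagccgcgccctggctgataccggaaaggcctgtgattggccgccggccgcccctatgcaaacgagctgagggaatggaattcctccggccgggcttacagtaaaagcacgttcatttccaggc
RUNX2 proximal: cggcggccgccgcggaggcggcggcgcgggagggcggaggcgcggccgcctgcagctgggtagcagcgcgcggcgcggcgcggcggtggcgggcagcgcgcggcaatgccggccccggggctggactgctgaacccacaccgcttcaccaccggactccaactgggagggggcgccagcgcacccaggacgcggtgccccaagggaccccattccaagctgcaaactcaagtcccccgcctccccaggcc
RUNX3 proximal: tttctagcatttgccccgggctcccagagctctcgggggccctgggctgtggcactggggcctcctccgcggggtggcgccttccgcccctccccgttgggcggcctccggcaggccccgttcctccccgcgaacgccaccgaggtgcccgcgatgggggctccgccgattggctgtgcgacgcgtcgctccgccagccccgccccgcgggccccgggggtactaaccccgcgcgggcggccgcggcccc
RUNX2 distal: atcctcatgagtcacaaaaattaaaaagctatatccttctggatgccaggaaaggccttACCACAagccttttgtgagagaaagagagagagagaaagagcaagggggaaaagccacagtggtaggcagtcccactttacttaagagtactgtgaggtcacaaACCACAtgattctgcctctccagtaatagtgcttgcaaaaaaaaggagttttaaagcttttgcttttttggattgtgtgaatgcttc

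None of the 3 proximal windows, taken from 250 bases before to 50 bases after the start, held a RUNX motif, and their GC content was 72.0% at RUNX1, 76.0% at RUNX2 and 76.0% at RUNX3. All 3 overlapped a peak in all 4 lists, which 13.8% of the 35116 promoter windows in the table did. The distal windows were the reverse. The RUNX2 distal window had a GC content of 42.7% and 4 RUNX motifs, the RUNX3 distal window had a GC content of 66.3% and 2, and neither overlapped a peak in any list, as was the case for 70.9% of all windows. The nearest region lay 48535 bp away at RUNX2 and 9373 bp away at RUNX3. In both distal windows the starts of a pair of motifs were 8 bases apart within an identical stretch of 18 bases, shown because no other member window held such a pair.
RUNX2 and RUNX3 shared stretch: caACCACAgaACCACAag

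At RUNX2 this stretch was chr6:45328344-45328361 on the plus strand, just after the start, and at RUNX3 it was chr1:24965126-24965143 on the minus strand, before the listed start. The other RUNX2 motifs stood 191 and 87 bases before its start. A RUNX motif pair with starts 8 bases apart was found in 6 of the 35116 windows, these 2 included, and none of the 6 overlapped a peak in any list, where 78.0% of all windows with a RUNX motif did not either. The motif itself was in 13.1% of windows, of which 11.5% overlapped a peak in all 4 lists, against 14.1% of windows without it. The share in all 4 lists was 1.29% of windows with a GC content under 50% and 29.3% of those at or above 70%, so base composition moved with the calls, and its part in the difference between distal and proximal windows was not tested. Of the 7 member windows none held the ETS motif GGAAGT (22.8% of all windows did) or the GATA motif AGATAA (10.3%), and the RUNX2 distal window held the AP-1 motif TGANTCA (7.71%), searched on both strands. A match is a description of the letters in the window, not of a bound site.

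Of the 7 genes, 6 had peaks in each of the 4 single-antibody lists, and RUNX1T1 had none in any. Among 20037 protein-coding genes, the share with at least 1 peak was 47.4% for control anti-ETO, 50% for control anti-Flag, 53.6% for knockdown anti-ETO and 42.1% for knockdown anti-Flag. A region called in all 4 lists lay at 6 of the 7 genes and at 35.1% of all genes. Among the 4027 genes within the members' range of length, the shares were 49.4%, 50.3%, 53.8% and 38.5% for the 4 lists in the same order, and 33.9% had a region in all 4 lists. The median number of regions was 12 per member and 1 per gene over all genes, and the median number in all 4 lists was 3 per member and 0 over all genes.

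**Figure D1:**
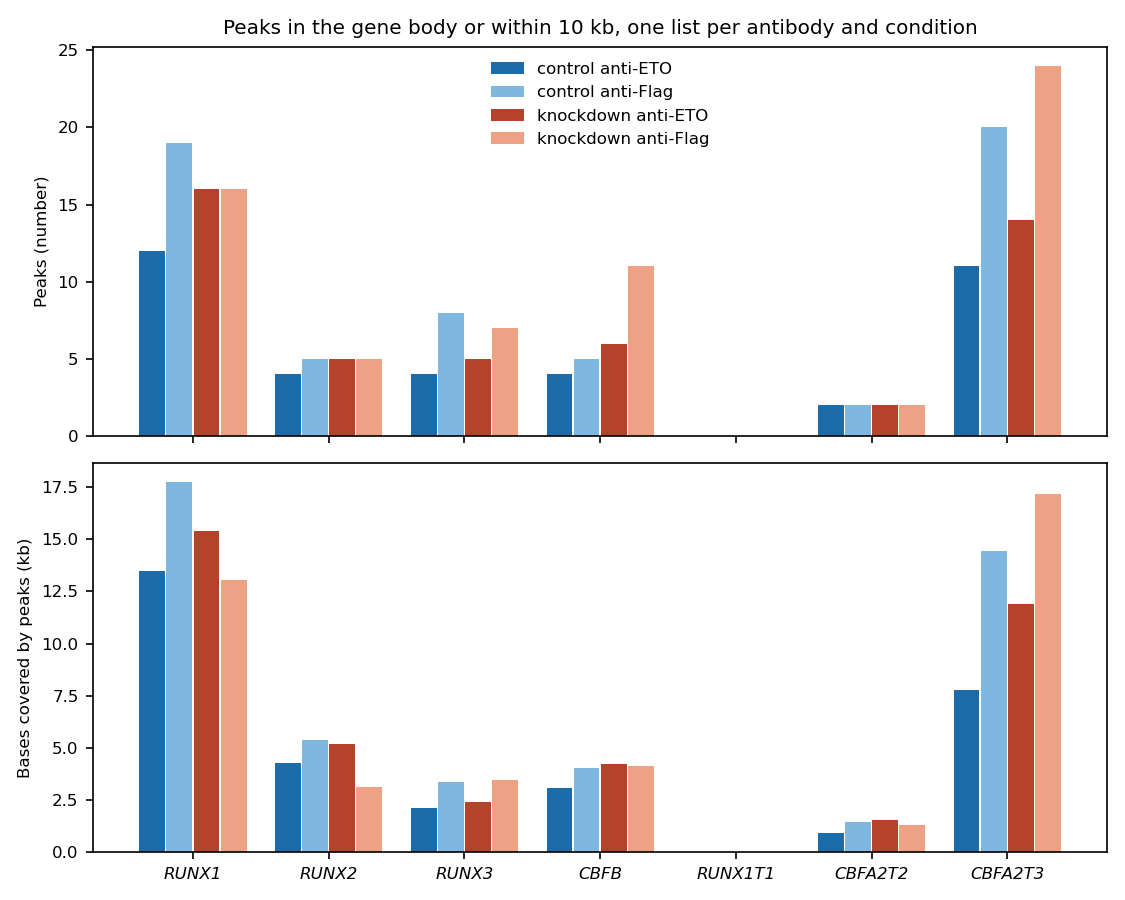
Number of peaks (upper axis) and kilobases covered by peaks (lower axis) at each of the 7 genes, with 1 bar for each of the 4 lists and no error bars, since each group has 1 list. RUNX1 and CBFA2T3 hold most of the peaks, up to 19 and 24 in a list, and RUNX1T1 has no bar.

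RUNX1 itself held many peaks for a gene in these lists, with 12 peaks for control anti-ETO, 19 for control anti-Flag, 16 for knockdown anti-ETO and 16 for knockdown anti-Flag. Of 20037 genes, the number that reached or passed these counts, RUNX1 included, was 15, 41, 48 and 269 in the same order. These peaks merged into 20 regions over the 262 kb of the gene (chr21:34787801-35049302, minus strand) and its flanks, and 8 of them were called in all 4 lists. Per length, RUNX1 had 7.1 regions per 100 kb, below CBFA2T3 (20.4), CBFB (15.2) and RUNX3 (14.0).

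The RUNX1 regions fell into few stretches. The first stretch spanned the distal start, which drives the isoform typical of definitive blood cells, from -6.3 kb (upstream of it) to 9.1 kb into the gene, with 6 regions. Peaks there covered 5412 bp in control anti-ETO, 6356 bp in control anti-Flag, 5668 bp in knockdown anti-ETO and 5215 bp in knockdown anti-Flag. The distal start at position 35049302 lay inside a region called in all 4 lists, chr21:35047673-35049870, and 2 more such regions flanked it, chr21:35045182-35047441 and chr21:35050089-35052296. RUNX1 therefore differed from RUNX2 and RUNX3, whose distal starts held no peak.

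The second stretch of RUNX1 lay 18.5 to 23.9 kb into the gene, in the long intron after the distal promoter. That intron holds a known haematopoietic enhancer, although its position was not looked up here. Its main region, chr21:35025391-35028524, was 3134 bp wide and called in all 4 lists, with 2257 bp covered in control anti-ETO, 3104 in control anti-Flag, 3083 in knockdown anti-ETO and 3045 in knockdown anti-Flag. The anti-Flag peak thus had nearly the same width in both conditions, while the anti-ETO peak was wider in knockdown.

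Farther in, a stretch at 136.8 to 145.8 kb held 6 regions, of which 3 were in all 4 lists: chr21:34907388-34908424, chr21:34908631-34909057 and chr21:34911226-34911904. The widest region of the gene covered the proximal start, in a stretch of 3 regions from 155.6 to 161.9 kb. It spanned 4200 bp, chr21:34887393-34891592, and the peaks in it covered 3323 bp in control anti-ETO, 3603 in control anti-Flag, 3718 in knockdown anti-ETO and 2728 in knockdown anti-Flag. Outside these stretches lay isolated regions, 1 at 65.7 kb, called only in knockdown anti-Flag, and 1 at 240.5 kb, called by both antibodies in control only. The lists cannot tell the fused copy of RUNX1 from the intact one, since the positions are those of the reference genome.

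**Figure D2:**
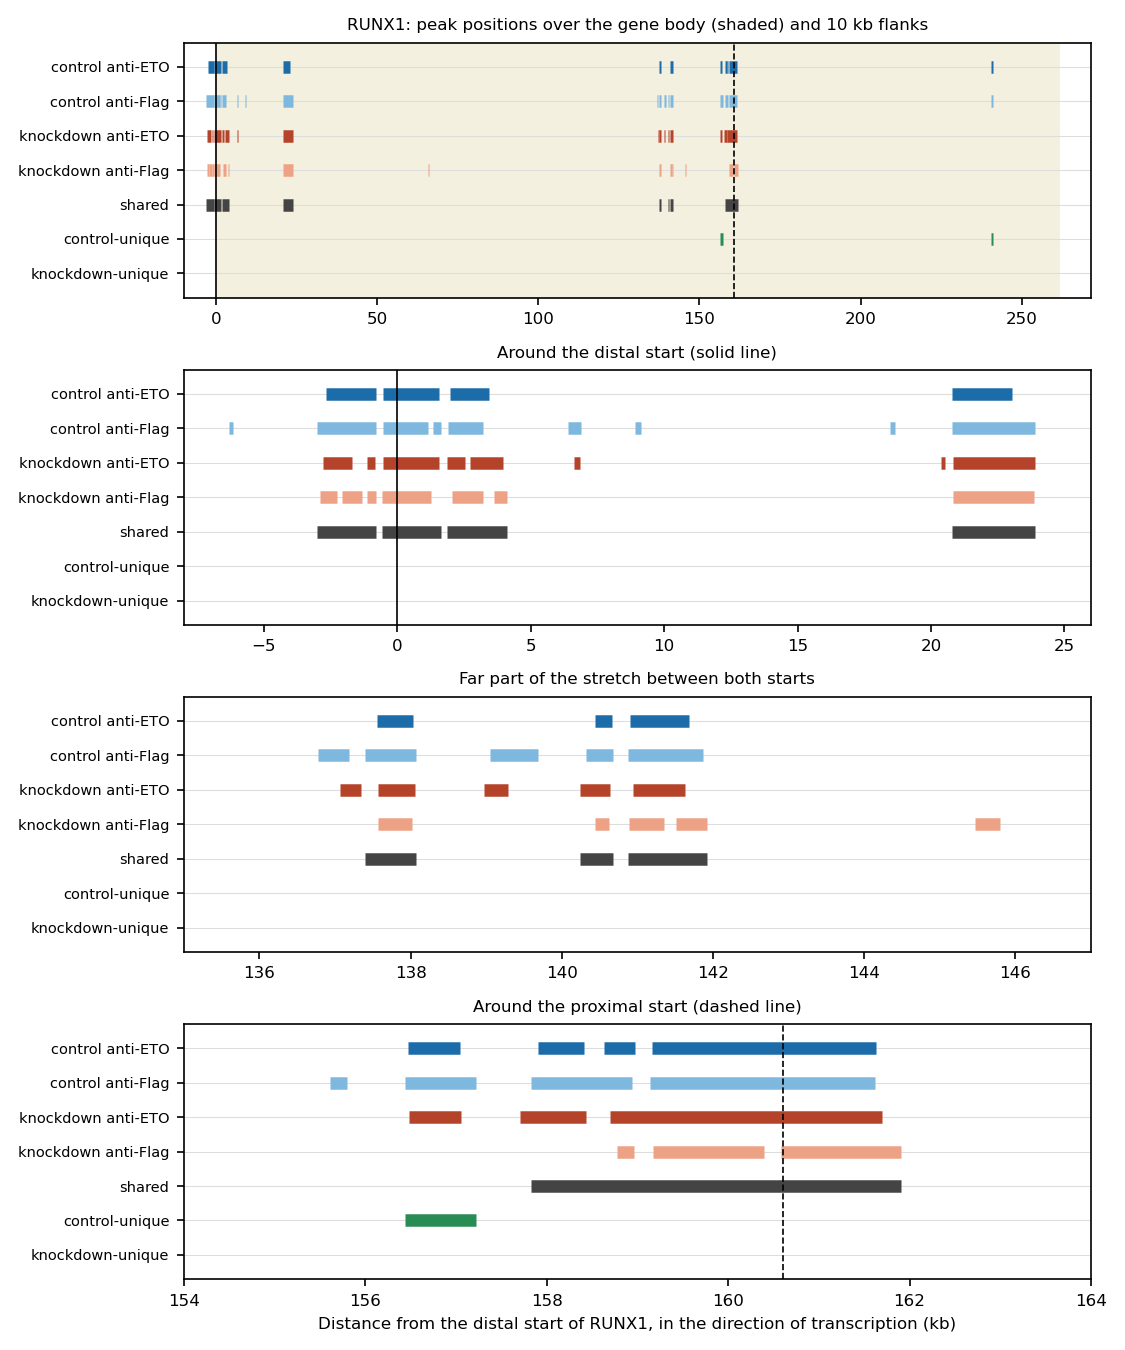
Peaks at RUNX1 in the 4 single-antibody lists and the 3 derived lists (shared, control-unique, knockdown-unique), against the distance in kb from the distal start in the direction of transcription, with the whole gene in one panel and closer views in the others. Peaks called in all 4 lists sit at the distal start, at 20.8 to 23.9 kb, at 137.4 to 141.9 kb and at the proximal start (160.6 kb). The 2 isolated regions elsewhere are not called in all 4 lists.

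RUNX2 held 7 regions over 223 kb (chr6:45328330-45551082, plus strand), and its 4 counts, in the order control anti-ETO, control anti-Flag, knockdown anti-ETO and knockdown anti-Flag, were 4, 5, 5 and 5. Of these regions, 6 lay 91.1 to 97.4 kb into the gene, around the proximal start at position 45422275. The region on that start, chr6:45421134-45423643, was in all 4 lists, and so was its neighbour chr6:45420338-45420896. The covered bases on the proximal start were 2265 and 2510 in control (anti-ETO and anti-Flag) and 2338 and 1608 in knockdown. The third region in all 4 lists, chr6:45376915-45378651, overlaps SUPT3H, a gene for a transcription coactivator subunit that starts inside RUNX2 on the opposite strand, so its peaks cannot be assigned to RUNX2 alone. SUPT3H starts lay in this region.

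RUNX3 had 12 regions over 65.6 kb (chr1:24899511-24965138, minus strand), with peak counts of 4 for control anti-ETO, 8 for control anti-Flag, 5 for knockdown anti-ETO and 7 for knockdown anti-Flag. Both regions in all 4 lists were at the proximal start, position 24930276. The upstream region, chr1:24930209-24931161, overlaps the antisense gene RUNX3-AS1, and the downstream one is chr1:24929078-24930026. A second stretch, 9.6 to 13.3 kb after the distal start, had 4 regions and was mostly an anti-Flag signal: peaks covered 0 bp in control anti-ETO, 925 in control anti-Flag, 335 in knockdown anti-ETO and 1189 in knockdown anti-Flag. No region there was in all 4 lists.

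CBFB, the non-DNA-binding partner, had 14 regions over 71.9 kb (chr16:67029149-67101058) but only 3 in all 4 lists. Its peak counts were 4, 5, 6 and 11 for control anti-ETO, control anti-Flag, knockdown anti-ETO and knockdown anti-Flag. Most of the excess in knockdown anti-Flag came from narrow peaks: 6 regions were called in that list only, and the median width of its 11 peaks was 228 bp. The covered bases were closer, with 3107, 4046, 4247 and 4161 bp in the same order. The regions in all 4 lists were chr16:67028296-67028997 before the start, chr16:67029186-67030590 after it, and chr16:67109473-67111311 beyond the end of the gene. The last of these overlaps the neighbouring gene PHAF1, so it cannot be assigned to CBFB alone.

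RUNX1T1, the ETO part of the fusion (chr8:91954967-92103385), had no peak in its 148 kb body or within 10 kb in any of the 4 single-antibody lists or the 3 derived lists. That also held with a flank of 50 kb. Its paralogues CBFA2T2 and CBFA2T3 had peaks in every single-antibody list.

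CBFA2T2 showed the opposite form to RUNX1: 2 peaks in every list, both at the start of the gene and none in the rest of its 160 kb body (chr20:33490096-33650030, plus strand). The regions were chr20:33489284-33489890 and chr20:33490088-33491227. Covered bases were 920 in control anti-ETO, 1434 in control anti-Flag, 1569 in knockdown anti-ETO and 1300 in knockdown anti-Flag. A further start listed 72.2 kb into the gene held no peak, and the nearest region was 70864 bp from its window.

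CBFA2T3, which encodes the ETO2 corepressor of erythroid and megakaryocytic cells and is itself a fusion partner in childhood leukaemia, had the most regions of the 7 genes, 25 over 102 kb (chr16:88874858-88977207, minus strand). Peaks numbered 11 for control anti-ETO, 20 for control anti-Flag, 14 for knockdown anti-ETO and 24 for knockdown anti-Flag. Of the regions, 9 were in all 4 lists, a number that 22 genes of 20037, CBFA2T3 included, reached or passed, and for RUNX1, with 8, it was 38 genes. The start of the gene lay in a region of 3216 bp, chr16:88976379-88979594, with 2305 bp covered in control anti-ETO, 3087 in control anti-Flag, 2895 in knockdown anti-ETO and 3205 in knockdown anti-Flag.

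The other CBFA2T3 regions in all 4 lists formed 3 groups. Those 17.8 to 20.8 kb in were chr16:88956398-88957394 and chr16:88957697-88959437. Those 34.9 to 41.3 kb in were chr16:88935907-88938253, the widest at 2347 bp, chr16:88938637-88939423, chr16:88940135-88941164 and chr16:88941580-88942345, around a second listed start. The window of that second start overlapped only a knockdown anti-ETO peak, by 21 bp, and had a GC content of 83.0%. The regions 54.2 to 56.5 kb in were chr16:88920747-88921450 and chr16:88921681-88923006. Several of the CBFA2T3 regions overlap uncharacterized RNA genes (LOC107984871, LOC100129697), so their peaks cannot be assigned to CBFA2T3 alone.

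CBFA2T3 also carried most of the regions that anti-Flag called in both conditions and anti-ETO in neither. There were 9 such regions at the members (11.2% of the 80, against 3.77% of all regions), and 8 of them were at CBFA2T3, with the other 1 at RUNX3. The widest, chr16:88946853-88948191, had 516 bp covered in control anti-Flag and 1288 in knockdown anti-Flag. The reverse case, a region called by anti-ETO in both conditions without anti-Flag, was rare everywhere, with 0 of the 80 member regions and 1.63% of all. All 37 control anti-ETO peaks at the members overlapped a control anti-Flag peak (100%, exact 95% interval 90.5% to 100%), against 89.6% of all control anti-ETO peaks. The interval covers counting error only, and peaks of 1 gene share their source.

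**Figure D3:**
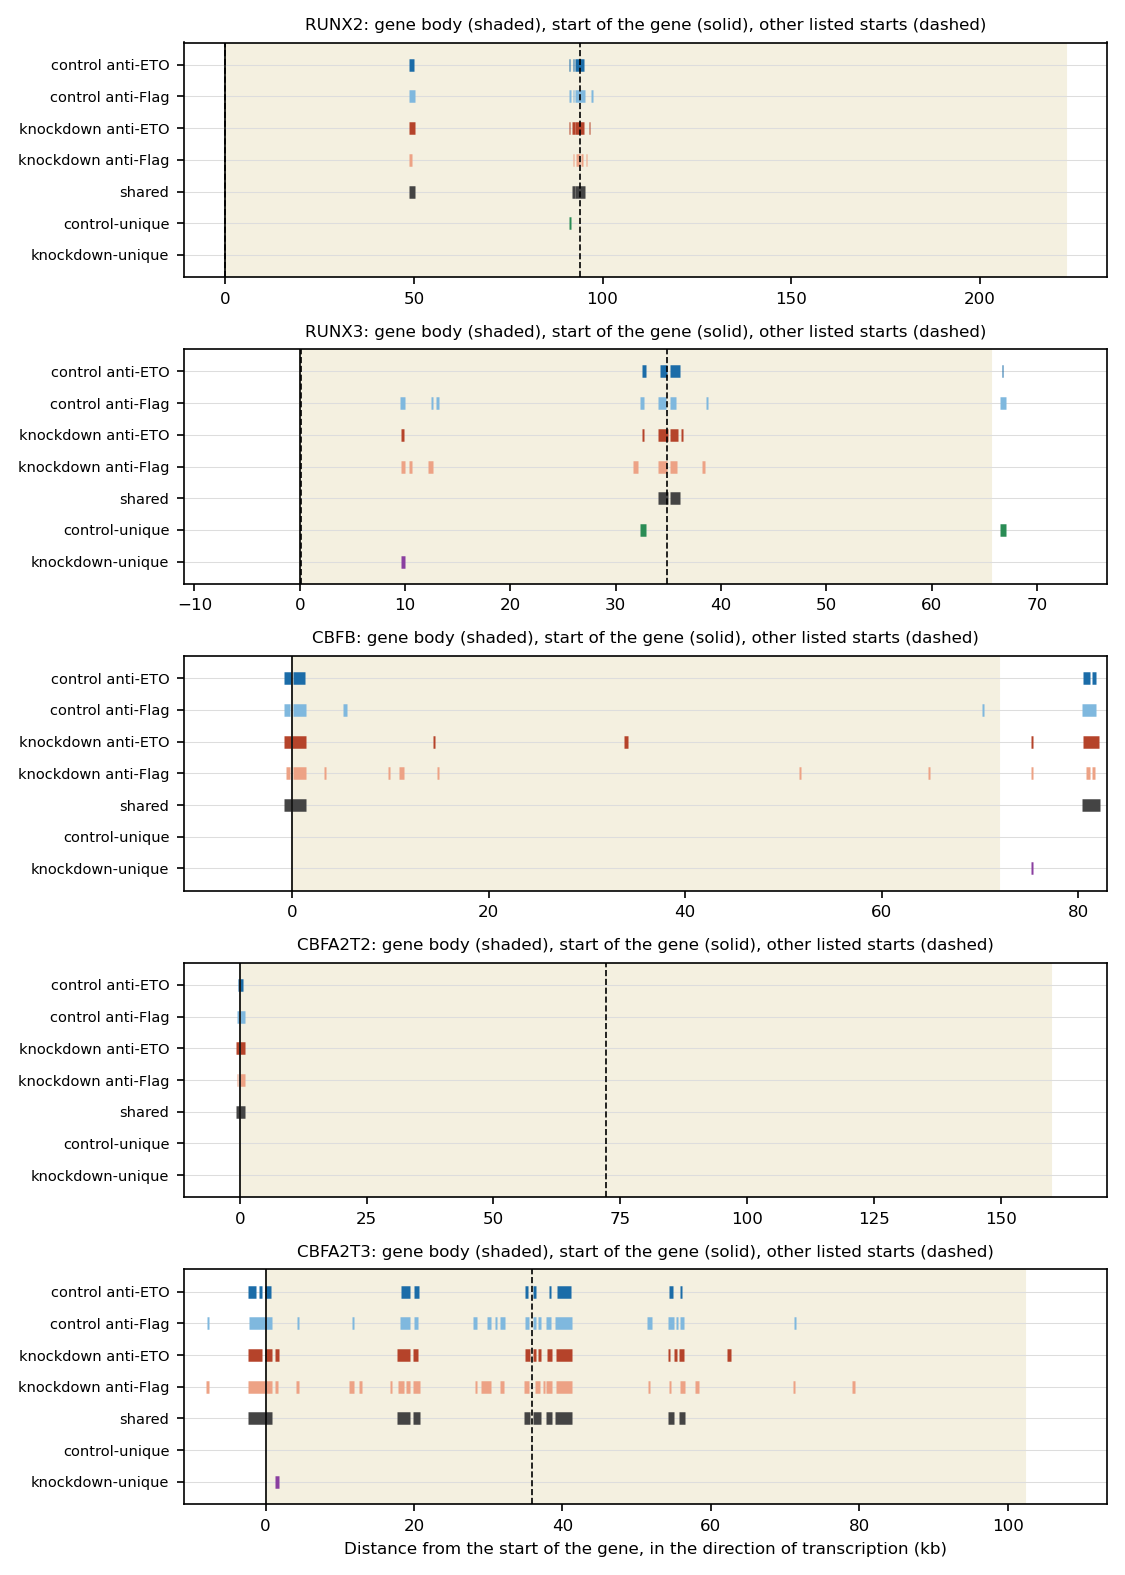
Peaks at RUNX2, RUNX3, CBFB, CBFA2T2 and CBFA2T3 in the 4 single-antibody lists and the 3 derived lists, against the distance in kb from the start of each gene, with the gene body shaded and other listed starts dashed. RUNX2 and RUNX3 have shared peaks at the proximal start, 93.9 and 34.9 kb in, and RUNX2 has another at 48.6 to 50.3 kb. CBFA2T2 has shared peaks only at its start, and CBFA2T3 at its start and in 3 groups within the gene.

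Over all members, 27 of the 80 regions were in all 4 lists (33.8%, exact 95% interval 23.6% to 45.2%). Of all 35622 regions it was 24.8%, which lies within that interval. These 27 had a median width of 1140 bp, from 427 to 4200 bp. Another 33 regions were in a single list (41.2%, against 44.3% of all), and these were narrow, with a median of 236 bp. Of them, 17 were in knockdown anti-Flag alone, 10 in control anti-Flag alone, 6 in knockdown anti-ETO alone and 0 in control anti-ETO alone. These were 21.2%, 12.5%, 7.5% and 0% of the 80 regions, near the 22.3%, 10.2%, 10.3% and 1.4% of all regions.

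The authors' lists of peaks seen by both antibodies put 27 member peaks in the shared list, 5 in the control-unique list and 3 in the knockdown-unique list. Shared peaks lay at 6 of the 7 genes (35.0% of all genes), control-unique peaks at 3 (16.9% of all genes) and knockdown-unique peaks at 3 (18.4% of all genes). Of the 35 peaks, 77.1% were shared, 14.3% control-unique and 8.57% knockdown-unique, whereas over the whole lists it was 53.2%, 18.6% and 28.1%. The unique peaks were narrower: the median width of the control-unique ones was 549 bp, that of the knockdown-unique ones 390 bp and that of the shared ones 1037 bp.

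The control-unique peaks lay at the RUNX genes. RUNX1 had 2, chr21:34808245-34808781 and chr21:34892086-34892865. RUNX2 had 1, chr6:45419483-45419835, and RUNX3 had 2, chr1:24898095-24898643 beyond the end of the gene and chr1:24932251-24932810. All 5 lacked a knockdown anti-Flag call, but 3 of them (the second of RUNX1, the RUNX2 peak and the second of RUNX3) overlapped a knockdown anti-ETO peak, so these lacked only an anti-Flag call in knockdown. The knockdown-unique peaks were chr1:24955174-24955563 at RUNX3, which overlapped a control anti-Flag peak, chr16:67104314-67104494 beyond the end of CBFB, and chr16:88975461-88975928 at CBFA2T3. The last 2 overlapped no control peak.

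Covered bases at the members were higher in knockdown than in control for anti-ETO and lower for anti-Flag. For anti-ETO, the members held 37 peaks in control and 48 in knockdown, 1.3 times as many, while the whole list was 1.58 times as long in knockdown. Covered bases went from 31689 to 40724 (1.29 times, against 1.67 for the whole list). For anti-Flag, there were 59 and 65 peaks, 1.1 times, near the 1.12 of the whole list, and covered bases went from 46441 to 42237 (0.909 times, against 0.975). The members' excess of anti-ETO peaks in knockdown was thus smaller than that of the list as a whole.

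Single genes differed in the covered bases. RUNX1 had 13496 bp in control anti-ETO and 15382 in knockdown anti-ETO, a ratio of 1.14, but 17751 bp in control anti-Flag and 13026 in knockdown anti-Flag, a ratio of 0.734. RUNX2 gave 1.21 for anti-ETO (4283 to 5202 bp) and 0.578 for anti-Flag (5396 to 3117 bp). In both genes the antibodies thus pointed in opposite directions, as they did at CBFA2T2 and in the whole lists. CBFA2T3 gave ratios above 1 for both, 1.53 for anti-ETO (7777 to 11890 bp) and 1.19 for anti-Flag (14420 to 17158 bp). For RUNX3 the ratios were 1.16 and 1.02, for CBFB 1.37 and 1.03, and for CBFA2T2 1.71 and 0.907.

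At regions called in both conditions, anti-ETO peaks mostly covered more bases in knockdown, and anti-Flag peaks covered more about as often as fewer. A region is called wider here where the peaks of a list together covered more of its bases. Since a region can hold several peaks of a list, a single peak in a wider region can still be narrower. For anti-ETO, 24 of 30 member regions were wider in knockdown (80.0%, against 76.0% of all 11992 such regions), with a median ratio of 1.22 against 1.21, so the members followed the list. For anti-Flag, 19 of 37 were wider (51.4%, against 38.9% of 12870) with a median of 1.01 against 0.933. The genes split: 7 of 8 RUNX1 regions were narrower in knockdown anti-Flag (median ratio 0.826, range 0.514 to 1.25), but 12 of 17 CBFA2T3 regions were wider (median 1.08, range 0.238 to 3.52). With anti-ETO all 9 CBFA2T3 regions were wider in knockdown, by a median ratio of 1.52 and at least 1.05. Whether such widths reflect occupancy or the depth and threshold of a list was not tested.

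**Figure D4:**
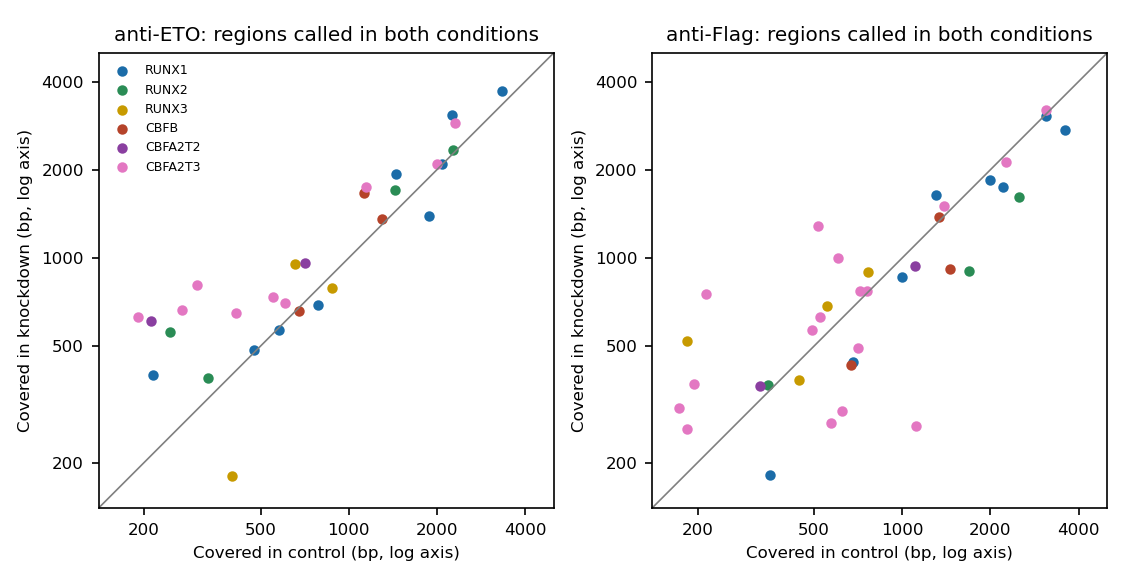
Bases covered in knockdown (y axis) against control (x axis) at each member region called in both conditions, in bp on log axes, for anti-ETO (30 regions) and anti-Flag (37 regions), coloured by gene, with the line of equal values. With anti-ETO most points lie above the line, and with anti-Flag 7 of the 8 RUNX1 points lie below it.

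Most peaks at the members were found again by the same antibody in the other condition. Control anti-ETO peaks at members overlapped knockdown anti-ETO peaks in 35 of 37 cases (94.6%, against 91.0% of all). In the other direction 34 of 48 knockdown anti-ETO peaks overlapped a control one (70.8%, against 55.7%). Control anti-Flag peaks overlapped knockdown anti-Flag peaks in 39 of 59 cases (66.1%, against 62.1%), and knockdown anti-Flag peaks overlapped control ones in 45 of 65 (69.2%, against 59.2%).

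At 7 places in the members all 4 lists left the same short interval uncovered between paired peaks, and at 3 of them a start or gene boundary lay within 100 bp. At CBFB the uncovered interval was chr16:67028998-67029185, 188 bp that hold the start of the gene at position 67029149. At CBFA2T2 it was chr20:33489891-33490087, 197 bp ending just before the start at position 33490096. The CBFB gap measured 223, 282, 188 and 243 bp in control anti-ETO, control anti-Flag, knockdown anti-ETO and knockdown anti-Flag, and the CBFA2T2 gap 206, 239, 198 and 299 bp. The third lay beside the proximal start of RUNX3 (chr1:24930027-24930208). The other intervals lay farther from a start, at RUNX1 (chr21:35049871-35050088, upstream of the distal start, and chr21:34908425-34908630), RUNX2 (chr6:45420897-45421133) and CBFA2T3 (chr16:88957395-88957696).

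Over the whole series there were 624 such gaps of 100 to 500 bp, flanked within 200 bp by a peak of every list on both sides, with a median of 229 bp, and 7 lay at the members. A start from the promoter table lay within 100 bp of 47.1% of the 624 and of 1 of the 7, and a gene boundary within 100 bp of 45.4% and of 2 of the 7. The smallest distance between neighbouring peaks of a list was 166 to 177 bp and the smallest peak was 165 to 176 bp wide. Closer peaks were thus absent from every list, and the part of the peak caller in the gaps was not tested.

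**Figure D5:**
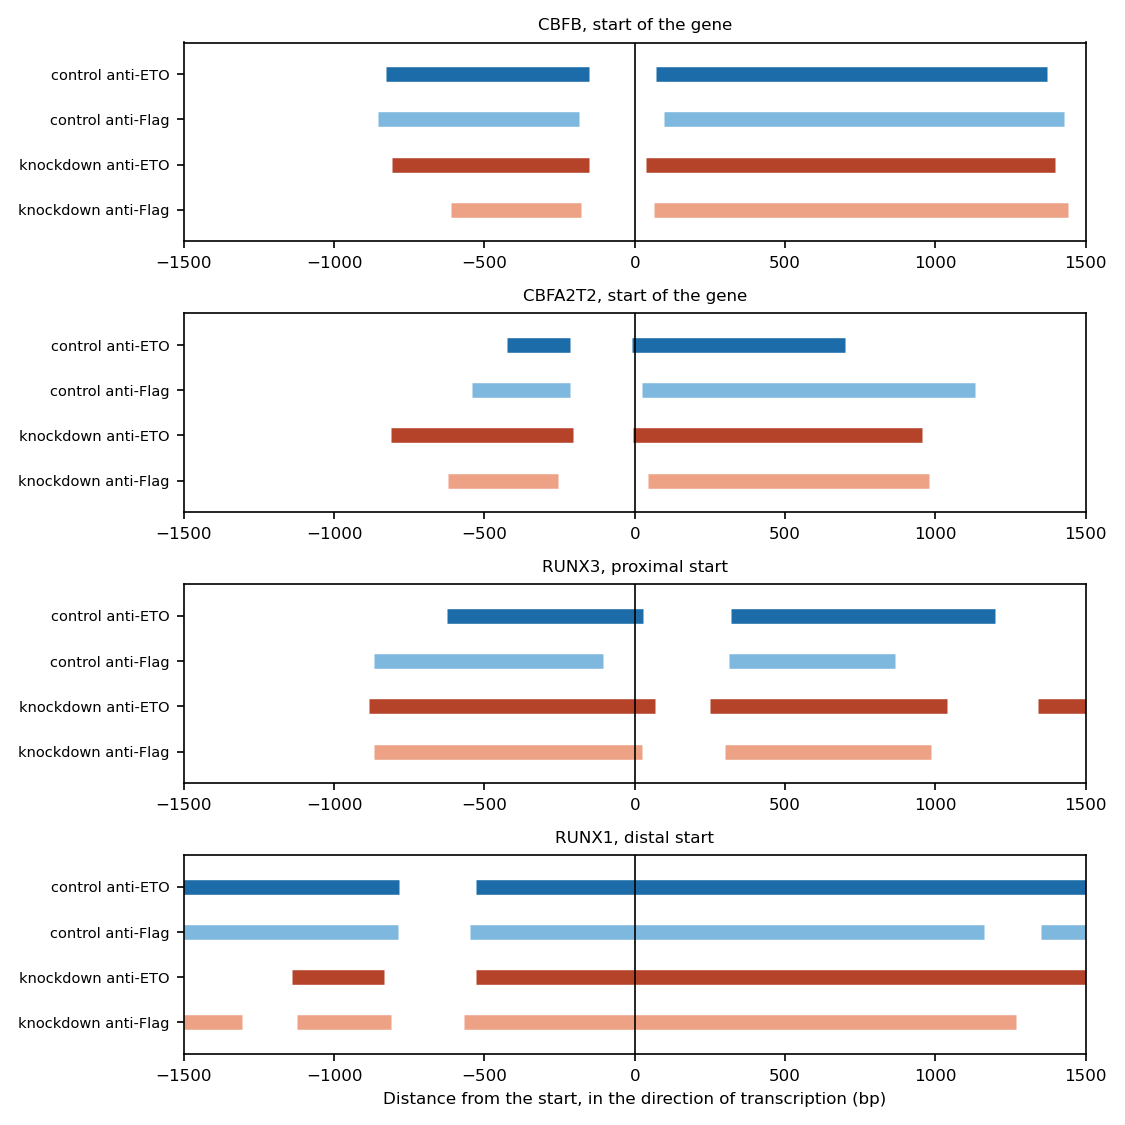
Peaks of the 4 lists within 1500 bp of 4 starts (CBFB, CBFA2T2, the RUNX3 proximal start and the RUNX1 distal start), against the distance in bp from the start in the direction of transcription. At CBFB and CBFA2T2 a pair of peaks flanks an uncovered interval at or just before the start in all 4 lists, and at the RUNX1 distal start the uncovered interval lies upstream.

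The genes whose 4 counts were nearest to those of RUNX1, by Euclidean distance over the 4 lists among all protein-coding genes, were AMDHD2 (10, 18, 13 and 13 peaks in the order control anti-ETO, control anti-Flag, knockdown anti-ETO, knockdown anti-Flag), CBARP (9, 17, 12 and 16), CIRBP (9, 15, 14 and 16), MAP3K14 (8, 19, 16 and 20) and FAM78A (10, 15, 13 and 14). The distances were 4.8, 5.39, 5.39, 5.66 and 5.74 peaks. The measure uses only the number of peaks, and 4 lists with shared cells stand behind it.

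Other genes of the same pathway had peaks at shares above that of all genes in each single-antibody list, which with lists chosen in the knowledge of earlier results is a description. Of 22 genes for proteins of the AML1-ETO complex and its cofactors, 15 had a peak in control anti-ETO, 16 in control anti-Flag, 20 in knockdown anti-ETO and 14 in knockdown anti-Flag, and 13 had a region in all 4 lists. TCF3, which encodes an E protein partner of the fusion, held 4, 9, 8 and 13 peaks in the same order, and LYL1, a helix-loop-helix factor, held 6, 7, 7 and 10. TAL1 and TCF4 had none in any list, and ERG had 0, 0, 4 and 1. Control-unique peaks lay at 8 of the 22 and knockdown-unique peaks at 5, where 16.9% and 18.4% of all genes had one.

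Of 12 textbook RUNX1 target genes, 9 had a peak in control anti-ETO, 12 in control anti-Flag, 10 in knockdown anti-ETO and 9 in knockdown anti-Flag, and 9 had a region in all 4 lists. ELANE, the neutrophil elastase gene, held 4, 13, 11 and 14 peaks and 7 knockdown-unique peaks. All these counts include the 10 kb flanks, so they cannot be assigned to the named gene alone. OGG1, a base-excision repair gene, held 3, 7, 6 and 11 peaks with 3 knockdown-unique ones. LAT2, a signalling adaptor, held 4, 4, 4 and 8, and UBASH3A held 1 in each list. CSF2 and IL3, neighbouring cytokine genes, had 1 peak in control anti-Flag, the same peak for both, and none elsewhere. SPI1, the gene of a myeloid master regulator that stands in both lists of genes, held 3, 4, 5 and 6 peaks. Knockdown-unique peaks lay at 3 of these 12 listed genes and control-unique peaks at 1, beside 18.4% and 16.9% of all genes.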

How the data were processed

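CUT&RUN was done in 18 libraries of Kasumi-1 cells, in 6 groups of 3 by condition and antibody, with groups taken from the sample titles. The deposited files were interval lists with chromosome, start and end only, made by the authors from the reads. They comprised 4 single-antibody lists, 2 lists of peaks found by both antibodies, and 3 lists derived from those, called shared, control-unique and knockdown-unique here. Per the submitters' processing notes, fastp 0.19.5, Bowtie2 2.3.5, MACS2 2.2.5 and HOMER 4.8 and the builds hg38 and sacCer3 were used. Settings, thresholds, use of the IgG libraries and pooling of replicates are not given in the sources used here. A longer list can come from a deeper library or a looser threshold, which changes every count.

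Starts were converted to count from 1. Peaks of the 4 lists that overlapped by at least 1 bp were merged, and a gene received every peak in its body or within 10 kb (RefSeq, GRCh38.p14). The strand of CBFB was not in the promoter table, and its lower boundary was taken as its start. Promoter windows held 250 bases before and 50 after a start, and motifs were searched on both strands. Besides RUNX, ETS and GATA, the E-box CANNTG, its form CAGGTG and the AP-1 motif TGANTCA were searched. They were in 68.7%, 20.6% and 7.71% of the windows of the table. Stretches group regions less than 5 kb apart. Genes most like RUNX1 were the 5 with the smallest Euclidean distance over the 4 peak counts. Regions printed with their positions were all those called in all 4 lists, every unique peak and the widest of each gene. The widest region called by anti-Flag alone at CBFA2T3 was added after its values were seen. Python 3.11.15, numpy 2.4.6, pandas 2.3.3, scipy 1.17.1 and matplotlib 3.10.9 were used. Overlap counting was tested on simulated data (2000 intervals), and 1000 of 1000 planted overlaps were recovered.

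The members, the gene lists and the tests were chosen with earlier results of these data known. Promoter windows of CBFB, RUNX1T1 and the distal start of RUNX1, and sequences of the peaks, were not used here. Alternatives tried were other flanks, overlap rules, lists of the wider peaks only, lists cut to equal length, merging distances and leaving out regions at other genes. The values of 1 gene of the pathway lists are not reported here.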

Additional observations from a re-analysis of the deposited data

Results flagged for a closer look

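At RUNX1 the number of peaks differed between conditions in opposite directions for the antibodies, with 4 more anti-ETO peaks in knockdown than in control (16 and 12) and a difference of -3 for anti-Flag (16 and 19). At RUNX3 the same held for the number of peaks on a smaller scale, with 1 more anti-ETO peak in knockdown (5 and 4) and a difference of -1 for anti-Flag (7 and 8). Of RUNX1 and RUNX3, only RUNX1 also had covered bases that differed in opposite directions, with ratios of 1.14 for anti-ETO and 0.734 for anti-Flag. Covered bases did so at RUNX2 and CBFA2T2 too, as given above. At RUNX3 both ratios were above 1, at 1.16 for anti-ETO and 1.02 for anti-Flag. With 1 list per group the difference between antibodies was not tested.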

How the results depend on the processing

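No paired analysis was possible because each group has a single list that names no replicate, so leaving out a replicate was not possible either. Of 127 alternative values in 9 settings, 97 stayed near the main value and 30 moved. A change of direction was not scored. For a width ratio, near meant within the standard deviation over regions (0.66 for anti-ETO, 0.666 for anti-Flag), a wide limit. The 97 include the counts at RUNX1T1, which stayed at 0. The 80 regions at the members became 48 with the wider 50% of each list, 53 with all 4 lists cut to the length of the shortest (14264 peaks) and 52 with peaks merged within 500 bp. The 27 shared peaks became 13 with the wider 50%. The 5 control-unique peaks became 8 with a 50 kb flank, and the 3 knockdown-unique peaks became 7 with that flank and 0 with the wider 50%. The share of regions in all 4 lists ranged from 30% to 43.4%. The share of all regions moved too: with peaks merged within 500 bp it was 28.4%, beside 30.8% at the members, so the difference nearly closed, and with lists of equal length it was 27.8%, beside 43.4%. The median width ratio ranged from 1.1 to 1.34 for anti-ETO. For anti-Flag it ranged from 0.981 to 1.06, which spans 1, so its direction depended on the setting. Regions that overlap another protein-coding gene were left out in a setting chosen after seeing the data, which gave 78 regions. The derived lists were not rebuilt for the lists of equal length or the merging of near peaks. Depth is unknown, so the precision of a single call cannot be given.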

Other observations

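Among the windows of the promoter table, the share that overlapped a peak in all 4 lists was 8.96% at a GC content of 50% to 60% and 20.3% at 60% to 70%. Below 50% GC it was 2.12% for windows with a RUNX motif and 1.11% for those without it. Windows with 4 or more RUNX motifs numbered 5 of 35116 (0.0142%), and the distal window of RUNX2 was one of them.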
